A study of Homo sapiens with 20 samples.

Results

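Metallothioneins are small cysteine-rich proteins that bind zinc and copper, and 8 of their genes were followed together with the zinc exporter SLC30A1 and the zinc-sensing transcription factor MTF1 in 5 human tumor cell lines treated with a tankyrase inhibitor. The 10 genes, MT1A, MT1E, MT1F, MT1G, MT1H, MT1M, MT1X, MT2A, SLC30A1 and MTF1, were taken by symbol from the expression table, and 10 of 10 are present among its 21201 symbols. They were selected on their RPKM in the G007-LK and DMSO libraries of these lines, so their levels and their differences between treatments are given below as a description. Where one of them is said to be called, the word only places it on a side of the threshold used for all genes, and nothing rests on it. Growth is sensitive to tankyrase inhibition (TNKSi) in a colon line (COLO320DM), a kidney line (UO-31), an ovary line (OVCAR-4) and a lung line (ABC-1), and insensitive in a second colon line (RKO). Each line was kept for 24 h with 1 µM of the tankyrase inhibitor G007-LK or with 0.01% DMSO, in 2 biological replicates per group, which gave 20 poly(A) libraries. ABC-1 and RKO were grown in EMEM and the other lines in RPMI-1640, both with serum. Differences in level between a line in EMEM and a line in RPMI-1640 cannot be told apart from differences between the media.

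Metallothionein genes are switched on when MTF1 senses free zinc and binds short DNA elements, the metal response elements, in their promoters. SLC30A1 (ZnT1) sits in the plasma membrane, pumps zinc out of the cell and is itself a target of MTF1. Cadmium, copper, glucocorticoids and oxidative stress also raise metallothionein transcripts in human cells.

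The 8 metallothionein genes lie side by side on chromosome 16, within 75.6 kb of GRCh37 (hg19), chr16:56642496-56718108, with 7 on the plus strand and MT1G on the minus strand. SLC30A1 (chr1:211744910-211752503) and MTF1 (chr1:38275246-38325264) both lie on the minus strand of chromosome 1. The coding sequences of MT2A, MT1E, MT1F and MT1X are printed because the comparisons below turn on these genes and because they are so alike that reads could be shared between them. Each coding sequence is split over 3 exons, has 183 bases without its stop codon and holds 20 in-frame TGC or TGT codons, which encode cysteine. MT2A spans chr16:56642568-56643263, MT1E chr16:56659764-56660880, MT1F chr16:56691971-56693073 and MT1X chr16:56716453-56717958, all on the plus strand. Below them stands the matching stretch of MT1L (within chr16:56651475-56652592), a transcribed pseudogene between MT2A and MT1E. Capitals mark the bases that differ from MT2A.
MT2A: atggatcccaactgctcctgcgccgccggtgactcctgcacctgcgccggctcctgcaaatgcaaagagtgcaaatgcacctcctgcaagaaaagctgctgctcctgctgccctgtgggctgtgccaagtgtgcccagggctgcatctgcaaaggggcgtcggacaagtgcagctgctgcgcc
MT1E: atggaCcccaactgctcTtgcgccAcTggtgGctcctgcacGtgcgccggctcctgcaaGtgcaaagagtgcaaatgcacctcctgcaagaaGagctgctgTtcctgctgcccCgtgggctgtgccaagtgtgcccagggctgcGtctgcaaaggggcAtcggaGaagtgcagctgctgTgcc
MT1F: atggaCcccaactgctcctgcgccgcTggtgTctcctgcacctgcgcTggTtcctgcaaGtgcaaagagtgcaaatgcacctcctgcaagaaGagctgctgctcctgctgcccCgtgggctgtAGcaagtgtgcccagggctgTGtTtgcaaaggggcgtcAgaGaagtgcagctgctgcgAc
MT1X: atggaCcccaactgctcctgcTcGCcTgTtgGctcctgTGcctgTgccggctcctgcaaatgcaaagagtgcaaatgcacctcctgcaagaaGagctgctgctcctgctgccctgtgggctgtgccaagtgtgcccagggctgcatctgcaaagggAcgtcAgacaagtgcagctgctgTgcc
MT1L: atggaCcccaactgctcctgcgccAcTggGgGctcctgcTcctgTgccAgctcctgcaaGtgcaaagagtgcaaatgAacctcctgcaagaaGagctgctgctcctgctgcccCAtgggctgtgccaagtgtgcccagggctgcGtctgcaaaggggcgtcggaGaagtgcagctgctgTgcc

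MT1E and MT1X each differ from MT2A at 14 of the 183 bases (92.3% identity), and MT1F at 16 (91.3%). The MT1L stretch differs from MT1E at 10 bases (94.5% identity), as MT1A does. The sources used here do not give the read length, so the transcripts were compared in windows of 50 bases with up to 2 mismatches, the number the authors' alignment allowed. By that measure 30.4% of the windows of the MT2A transcript occur in another metallothionein transcript, 28.5% of those of MT1E, 28.2% of those of MT1X and 15.2% of those of MT1F. The share was 53.6% for MT1M, 35.4% for MT1A, 34.9% for MT1G, 33.6% for MT1H and 70.8% for MT1L. Of the 137 windows of MT1L, 97 were shared, and 79 (57.7% of all its windows) matched MT1E. How the alignment treated reads that fit more than 1 gene is not given, so values of single metallothioneins, MT1E and MT1L above all, are uncertain.

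Promoters were compared for those of the genes that had an entry. RefSeq promoter entries (GRCh38.p14) matched 5 of the 10 genes, MT2A, MT1X, MT1H, SLC30A1 and MTF1, and the 250 bases before each start were found again in GRCh37. They were searched on both strands for TGCACNC and TGCGCNC, the core letters of the metal response element, which can overlap each other. Capitals mark the matches. MT2A lies at chr16:56642246-56642495 (plus strand), MT1X at chr16:56716132-56716381 (plus strand) and SLC30A1 at chr1:211752504-211752753 (minus strand).
MT2A: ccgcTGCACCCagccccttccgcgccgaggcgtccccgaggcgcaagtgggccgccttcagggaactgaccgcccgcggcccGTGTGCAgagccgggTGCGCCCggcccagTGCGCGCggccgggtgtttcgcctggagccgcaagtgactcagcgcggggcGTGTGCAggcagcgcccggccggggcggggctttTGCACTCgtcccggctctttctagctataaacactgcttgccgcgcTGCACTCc
MT1X: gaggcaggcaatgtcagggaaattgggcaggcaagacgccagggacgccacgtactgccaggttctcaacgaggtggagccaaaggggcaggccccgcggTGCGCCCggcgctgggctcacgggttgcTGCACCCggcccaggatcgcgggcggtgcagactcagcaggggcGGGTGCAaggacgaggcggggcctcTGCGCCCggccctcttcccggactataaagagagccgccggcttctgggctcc
SLC30A1: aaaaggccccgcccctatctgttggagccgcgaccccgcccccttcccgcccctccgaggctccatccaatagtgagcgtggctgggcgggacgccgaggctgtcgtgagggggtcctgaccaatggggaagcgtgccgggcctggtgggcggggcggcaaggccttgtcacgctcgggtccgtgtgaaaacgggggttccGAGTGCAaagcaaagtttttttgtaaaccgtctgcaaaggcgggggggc

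The letters occurred 7 times before MT2A, 8 times before MT1H (chr16:56703476-56703725), 4 times before MT1X, 1 time before SLC30A1 and 0 times before MTF1 (chr1:38325265-38325514). Of 35116 promoter entries of the same length, 24.8% held at least 1 match, 0.37% at least 4 and 0.12% at least 5. MT1H, with most matches of the 5, was at 0 to 4 reads in every library.

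Values are RPKM, read counts scaled to a gene length of 1000 bases and to a library of 1000000 mapped reads. Because RPKM values step by what 1 read is worth, whole reads could be recovered for 96.5% of the genes above 0, and the libraries held 24925990 to 28209372 of them. The RPKM worth of 1 read differed by up to 2.46 times between libraries although the recovered reads were similar, and it was highest in OVCAR-4, so levels between lines are given also as RPM, the reads of a gene among 1000000 recovered reads. G007-LK and DMSO were compared within each line with limma on log2(RPKM + 0.5), among genes that reached a mean of 1 RPKM over the 4 libraries of the line, at a Benjamini-Hochberg adjusted p under 0.05, and "called" means past this threshold. The median of all genes tested was shifted on the log2 scale, to -0.14 for ABC-1, to -0.11 for OVCAR-4 and to between -0.04 and -0.01 for the rest. A second value is therefore given after median-ratio scaling, which sets each library to the same typical level. Over all genes, G007-LK replicate 2 minus replicate 1 had a median of -0.29 on the log2 scale in UO-31, and the DMSO pair of COLO320DM a median of 0.17. Tissue markers were present in part: of the colon markers, CDX2 was at 516 to 763 RPKM in COLO320DM and 6.88 to 7.43 in RKO and EPCAM at 1.10 to 1.40 and 2.71 to 3.18 in the same order, while VIL1 was at most 0.07 in both. PAX8 stood at 63.9 to 83.7 in UO-31 and 81.2 to 89.5 in OVCAR-4, and EPCAM at 530.1 to 609 in ABC-1 and 452 to 468 in OVCAR-4. WT1 was at most 0.14 RPKM in OVCAR-4, and SFTPB and NAPSA at most 0.28 in ABC-1. KRT20 was at 3.44 to 6.24 RPKM in COLO320DM and at most 0.04 in RKO. Of the blood and vessel markers, HBB was at 0 in every library, PTPRC at 2.68 to 4.05 RPKM in COLO320DM, CDH5 at 5.00 to 6.66 in UO-31 and 2.87 to 3.84 in OVCAR-4, PECAM1 at 1.11 to 1.35 in OVCAR-4, and the rest at most 0.12.

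MT2A was the most abundant metallothionein in all 5 lines. It was 2.00-fold higher with G007-LK in ABC-1, slightly higher in RKO, and lower in COLO320DM, UO-31 and OVCAR-4. In ABC-1 it stood at 123 and 125 RPKM in the G007-LK libraries (1485 and 1621 reads) and 59.2 and 64.9 RPKM in the DMSO libraries (690 and 707 reads), a log2 difference of 1.00 ± 0.07 (SE), or 1.15 after scaling. In RKO it stood at 3474 and 3577 RPKM with G007-LK and 3237 and 3151 RPKM with DMSO, a difference of 0.14 ± 0.02, or 0.17 after scaling. In both lines the 2 treated libraries lay above the 2 control libraries.

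In the other 3 lines both treated libraries lay below both controls. MT2A was at 71.8 and 68.3 RPKM with G007-LK in COLO320DM, against 93.1 and 98.9 RPKM with DMSO, a log2 difference of -0.45 ± 0.08 (-0.43 after scaling). In OVCAR-4 it was at 750.9 and 784 RPKM with G007-LK and 962 and 955 RPKM with DMSO, a difference of -0.32 ± 0.03 (-0.21 after scaling). In UO-31 it was at 2470.4 and 2468 RPKM with G007-LK and 2988 and 2971 RPKM with DMSO, a difference of -0.27 ± 0.06. That last value kept its size after scaling (-0.22 ± 0.14) but was no longer called, and on recovered reads the treated libraries were further apart, at 819.6 and 997.7 RPM, against 1075 and 1103 RPM in the DMSO libraries. The lines in which MT2A was higher are the 2 grown in EMEM and include the insensitive line, and the part of the medium was not tested.

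MT1X, the other broadly expressed isoform, was higher or lower in the same lines as MT2A. Its log2 difference was 0.31 ± 0.12 in ABC-1, with 6.10 and 6.16 RPKM in the G007-LK libraries against 4.61 and 5.12 RPKM in the DMSO libraries, and 0.14 ± 0.02 in RKO, with 274 and 278 RPKM against 255 and 245 RPKM. With G007-LK it stood at 56.7 and 59.4 RPKM in COLO320DM, against 70.2 and 69.8 RPKM with DMSO (-0.27 ± 0.09). In OVCAR-4 it stood at 139 and 151 RPKM with G007-LK and 164 and 169.8 RPKM with DMSO (-0.20 ± 0.04), and in UO-31 at 46.8 and 47.4 RPKM with G007-LK and 58.8 and 58.5 RPKM with DMSO (-0.31 ± 0.15). No group pair overlapped. The OVCAR-4 difference was -0.09 after scaling and no longer called, and the UO-31 difference was not called on either scale. The call in COLO320DM was lost with quantile normalization, without the filter, with a replicate block and by voom on recovered reads (-0.21 ± 0.09). That in ABC-1 was lost with a replicate block.

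MT1F did not keep to the direction of MT2A. In OVCAR-4 it was at 271 and 262 RPKM with G007-LK and 208 and 225 RPKM with DMSO, a log2 difference of 0.30 ± 0.04 (0.41 after scaling), while MT2A was lower. In UO-31 it was at 54.2 and 57.4 RPKM with G007-LK and 42.4 and 39.2 RPKM with DMSO, a difference of 0.45 ± 0.15 (0.49 after scaling). In ABC-1 it was higher together with MT2A, at 3.05 and 2.84 RPKM (36 and 36 reads) with G007-LK against 1.05 and 1.50 RPKM (12 and 16 reads) with DMSO, a difference of 0.97 ± 0.13. The groups overlapped in COLO320DM (22 and 13 reads with G007-LK, 22 and 10 with DMSO) and in RKO (14 and 25 reads with G007-LK, 26 and 19 with DMSO). The calls of MT1F in OVCAR-4 and UO-31 were lost in 1 fit over the 20 libraries, and that in UO-31 also without the filter.

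The ratio of 2 genes within a library does not depend on how the library was scaled. For every 1000 reads of MT2A, MT1F had 353 and 327 reads in OVCAR-4 with G007-LK and 211 and 231 reads with DMSO. In UO-31 it had 21.5 and 22.8 reads with G007-LK and 13.9 and 12.9 reads with DMSO. In ABC-1 the ratio was 24.2 and 22.2 with G007-LK and 17.4 and 22.6 with DMSO, which overlap. MT1X had 49.8 and 49.4 reads per 1000 of MT2A in ABC-1 with G007-LK, against 78.3 and 79.2 with DMSO, so the 2 genes changed unequally there. In COLO320DM the same ratio was 793 and 873 with G007-LK and 757 and 708 with DMSO.

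MT1E was at 308 RPKM or more in every library of RKO, UO-31 and OVCAR-4 and close to 0 in the other lines. In UO-31 it was at 623 and 617 RPKM with G007-LK and 835 and 824 RPKM with DMSO, a log2 difference of -0.42 ± 0.08, which was -0.37 and not called after scaling. In OVCAR-4 it was at 309 and 308 RPKM with G007-LK and 390 and 407 RPKM with DMSO (-0.37 ± 0.03, -0.25 after scaling). In RKO it was at 683 and 698 RPKM with G007-LK and 638 and 660 RPKM with DMSO (0.09 ± 0.02, 0.11 after scaling). In ABC-1, where MT2A was higher, MT1E had only 4 and 5 reads with G007-LK and 13 and 16 reads with DMSO and was under the filter, and in COLO320DM it had 13 and 9 reads with G007-LK and 0 and 10 reads with DMSO. For every 1000 MT1E reads, MT1L had 1095 and 1072 reads in UO-31 with G007-LK against 965 and 944 with DMSO, 188 and 164 in OVCAR-4 against 153 and 154, and 431 and 415 in RKO against 453 and 424.

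MT1A was lower with G007-LK in each line that expressed it. It was at 25.9 and 26.3 RPKM with G007-LK in COLO320DM, against 37.7 and 34.9 RPKM with DMSO (-0.47 ± 0.10). In OVCAR-4 it was at 30.8 and 30.7 RPKM with G007-LK and 46.7 and 45.4 RPKM with DMSO (-0.57 ± 0.05), and in UO-31 at 6.89 and 8.29 RPKM with G007-LK and 11.3 and 13.0 RPKM with DMSO (-0.65 ± 0.21). These 3 differences stayed called after median-ratio scaling, at -0.45, -0.46 and -0.60 in that order of lines. The call in UO-31 was lost with quantile normalization, without the filter and by voom on recovered reads (-0.67 ± 0.21), and that in COLO320DM with a replicate block. MT1A had 0 to 4 reads in every library of ABC-1 and RKO.

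MT1M was tested in 3 lines and called in RKO, at 42.6 and 45.4 RPKM with G007-LK against 37.1 and 39.9 RPKM with DMSO (0.19 ± 0.04). In OVCAR-4 its difference was 0.06 ± 0.05, and 0.17 ± 0.05 and called after scaling, and in UO-31 the groups overlapped (-0.15 ± 0.21). MT1G was tested in COLO320DM (0.20 ± 0.14) and UO-31 (0.03 ± 0.20) and called in neither, with 65 to 116 reads per library there. MT1H, at most 4 reads in any library, was tested nowhere.

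**Figure D1:**
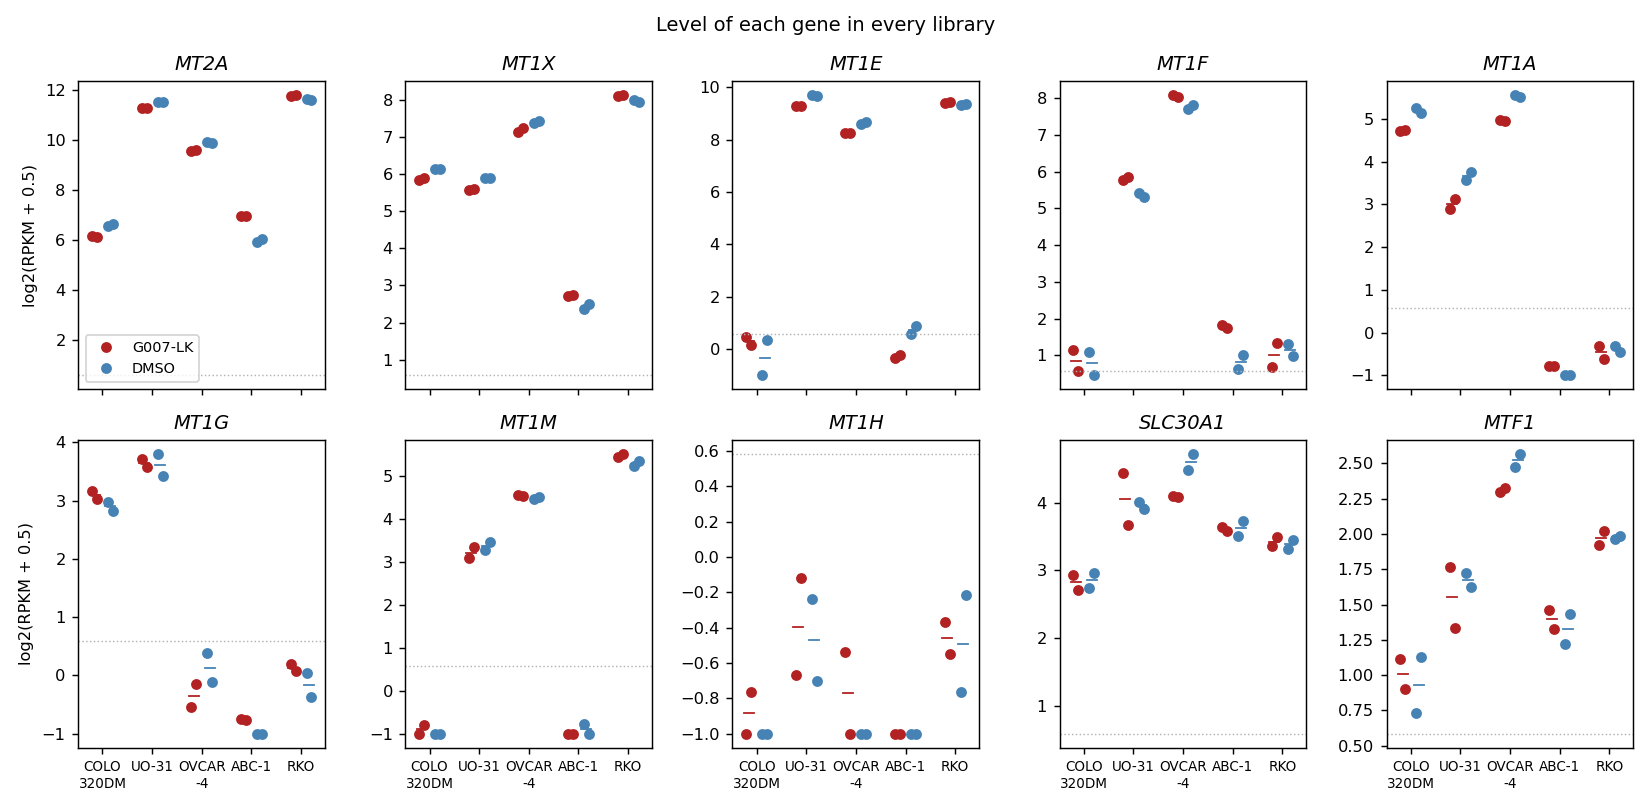
Level of each gene, as log2(RPKM + 0.5), in every library of the 5 lines, with G007-LK in red left of DMSO in blue, points for libraries, short lines for their means, and a dotted line at an RPKM of 1. On this scale, and among genes past the filter, MT2A in ABC-1 shows the widest gap between treatments. It stood at 123 and 125 RPKM with G007-LK against 59.2 and 64.9 RPKM with DMSO. The ratio of mean RPKM in ABC-1 was 2.00 for MT2A and 2.31 for MT1F, which lies much lower. MT1H stays below the dotted line throughout.

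SLC30A1, the exporter, was expressed in all lines. In OVCAR-4, where it was called, it was at 16.6 and 16.4 RPKM with G007-LK and 21.9 and 26.0 RPKM with DMSO. The log2 difference was -0.52 ± 0.07 (-0.41 after scaling). MT2A, MT1E, MT1X and MT1A went the same way in that line, and MT1F (0.30) and MT1M (0.06, not called) the other way. Of all genes, 39.0% were called lower there. In ABC-1, where MT2A was 2.00-fold higher, SLC30A1 was at 12.0 and 11.4 RPKM with G007-LK and 10.9 and 12.8 RPKM with DMSO, and the groups overlapped (-0.01 ± 0.10). On recovered reads they did not, at 24.6 and 24.2 RPM with G007-LK against 21.2 and 23.3 RPM with DMSO, and the difference was 0.14 ± 0.07 after scaling, which was called with quantile normalization (0.16) but not with median-ratio scaling. The difference was 0.04 ± 0.06 in RKO, -0.03 ± 0.15 in COLO320DM and 0.09 ± 0.19 in UO-31, where the G007-LK replicates stood at 21.2 and 12.2 RPKM against 15.6 and 14.6 RPKM with DMSO.

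MTF1, the zinc sensor, was called in no line by limma on RPKM, on either scale, and in ABC-1 by voom on recovered reads (0.23 ± 0.09). Its log2 differences were 0.07 ± 0.13 in ABC-1, -0.005 ± 0.064 in RKO, 0.08 ± 0.16 in COLO320DM, -0.12 ± 0.22 in UO-31 and -0.21 ± 0.09 in OVCAR-4. In RPKM the groups did not overlap in OVCAR-4, at 4.43 and 4.51 RPKM with G007-LK and 5.06 and 5.44 RPKM with DMSO, and that difference was -0.11 after scaling. In ABC-1 they overlapped in RPKM but not in RPM, at 18.1 and 16.7 with G007-LK against 14.0 and 15.7 with DMSO, and the difference was 0.19 after scaling. In UO-31 MTF1 was called without G007-LK replicate 1 (-0.34). Transcript levels of MTF1 say nothing of its activity, which depends on zinc binding.

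Counted over the 50 pairs of gene and line, 36 passed the filter, 9 were called higher and 11 lower. In COLO320DM 0 of 7 tested were called higher and 3 lower, beside 7.70% and 11.6% of all genes, and in ABC-1 3 of 5 were called higher and 0 lower, beside 16.6% and 41.2%. In RKO 4 of 7 were called higher and 0 lower, beside 1.36% and 2.75% of all genes. In UO-31 1 of 9 was called higher and 3 lower, beside 4.79% and 8.63% of all genes, and in OVCAR-4 1 of 8 higher and 5 lower, beside 12.6% and 39.0%. After scaling the counts were 1 higher and 1 lower in UO-31 (14.6% and 15.5% of all genes), 2 higher and 4 lower in OVCAR-4 (24.1% and 23.0%), 0 higher and 3 lower in COLO320DM (18.4% and 20.2%), 3 higher and 0 lower in ABC-1 (31.4% and 32.4%), and 4 higher and 0 lower in RKO (1.65% and 1.06%). Nothing is read from these counts, since the genes were chosen with the values known. The count fell to 0 in UO-31 without DMSO replicate 1 or without DMSO replicate 2 and became 7 without G007-LK replicate 1 or 2. In COLO320DM it fell to 1 without G007-LK replicate 1 and to 0 without G007-LK replicate 2. In RKO none of the 4 calls was kept without the filter or in 1 fit over the 20 libraries, and the count was 2 without DMSO replicate 1 or G007-LK replicate 1 and 1 without DMSO replicate 2 or G007-LK replicate 2. The call of MT1X was lost in ABC-1 without DMSO replicate 1, G007-LK replicate 1 or G007-LK replicate 2, and in OVCAR-4 without DMSO replicate 2.

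**Figure D2:**
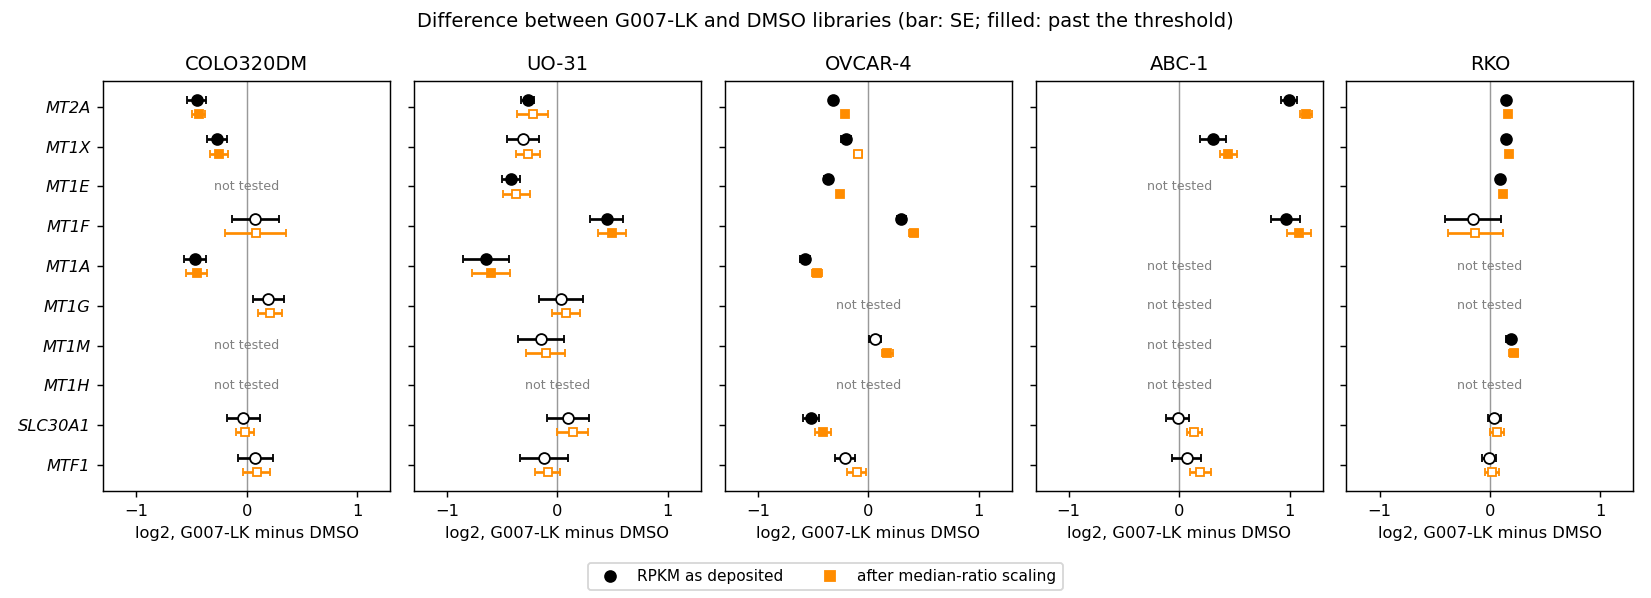
Log2 difference, G007-LK minus DMSO, of each gene in each line with its standard error, from deposited RPKM (black circles) and after median-ratio scaling (orange squares), with filled symbols for genes past the threshold. MT2A is at 1.00 in ABC-1, 0.14 in RKO, -0.45 in COLO320DM, -0.32 in OVCAR-4 and -0.27 in UO-31, and MT1F lies right of 0 in UO-31 (0.45) and OVCAR-4 (0.30).

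In the DMSO libraries the lines were ordered RKO, UO-31, OVCAR-4, COLO320DM and ABC-1 by MT2A, with 3194 ± 61.0, 2979 ± 11.7, 959 ± 4.51, 96.0 ± 4.06 and 62.1 ± 4.03 RPKM (SD, n = 2 each). No neighbours in this order overlapped, and it was the same in RPM, at 1617, 1089, 209.6, 44.6 and 26.7. RKO and UO-31 were close in RPKM, at a ratio of 1.07, but at a ratio of 1.48 in RPM. MT1X was ordered RKO, OVCAR-4, COLO320DM, UO-31 and ABC-1 on both scales. MT1F was highest in OVCAR-4 (217 ± 12.4 RPKM) and next in UO-31 (40.8 ± 2.25), and the other 3 lines, at 1.26 to 1.74 RPKM, overlapped. MT1A was highest in OVCAR-4 by RPKM (46.1 ± 0.92, against 36.3 ± 1.99 in COLO320DM) but in COLO320DM by RPM (17.0, against 10.1 in OVCAR-4). MT1E was at 829 ± 7.15 RPKM in UO-31 and 649 ± 15.3 RPKM in RKO, and at 338 RPM in UO-31 and 366 RPM in RKO, so the order of these lines also turned with the scale. SLC30A1 ran from 6.74 RPKM in COLO320DM to 23.9 in OVCAR-4, but in RPM the other lines, ABC-1, RKO, OVCAR-4 and UO-31, overlapped at 22.0 to 24.1. MTF1 ran from 1.42 RPKM in COLO320DM to 5.25 in OVCAR-4, and from 11.2 RPM in COLO320DM to 29.8 RPM in RKO.

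Summed over the 8 genes, metallothioneins took 2345 and 2399 RPM in RKO with G007-LK and 2155 and 2105 with DMSO. They took 62.1 and 65.4 in ABC-1 with G007-LK and 29.5 and 30.4 with DMSO, where the exact Poisson 95% interval of the lowest library was 27.4 to 31.6. In COLO320DM the sum was 77.3 and 81.4 with G007-LK and 103 and 92.5 with DMSO, in OVCAR-4 366 and 365 against 404 and 405, and in UO-31 1092 and 1329 against 1457 and 1492. Such intervals and floors cover counting error only. MT2A made up 92.8% and 92.9% of the summed reads in ABC-1 with G007-LK and 89.6% and 88.9% with DMSO, but 43.6% and 42.0% in COLO320DM with G007-LK and 44.5% and 46.8% with DMSO. MT1X took 33.2% to 36.7% in COLO320DM. MT1F took 17.1% and 16.1% in OVCAR-4 with G007-LK and 11.1% and 11.8% with DMSO.

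**Figure D3:**
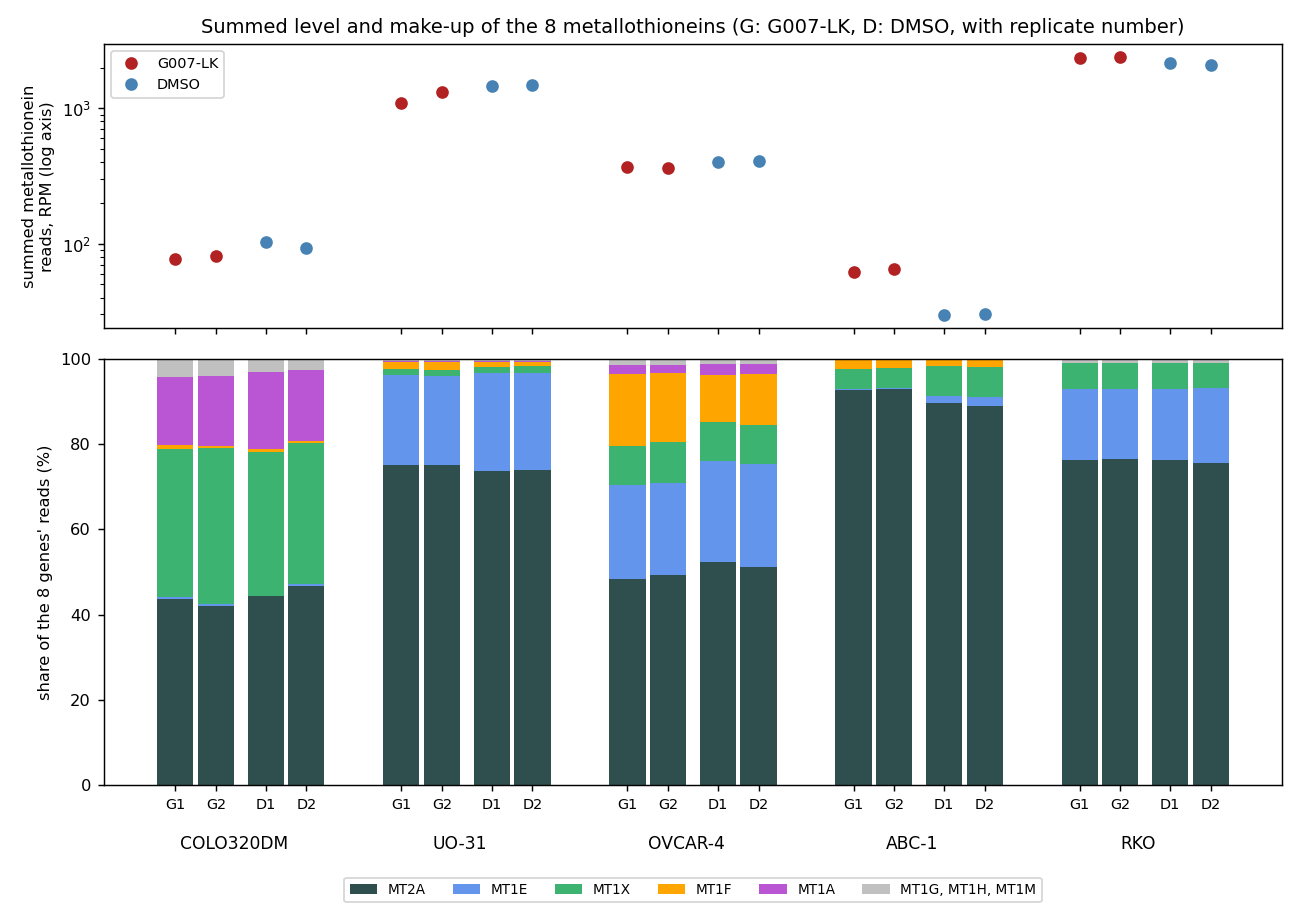
Upper panel, summed reads of the 8 metallothioneins in RPM on a log axis, and lower panel, the share of each gene in that sum in percent, for every library (G, G007-LK; D, DMSO; with the replicate number). ABC-1 stands at 62.1 and 65.4 RPM with G007-LK, against 29.5 and 30.4 with DMSO, and MT1F takes 17.1% and 16.1% in OVCAR-4 with G007-LK, against 11.1% and 11.8% with DMSO.

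The level of SEMA7A followed that of MT2A most closely over the 20 libraries, with a root mean square difference of 0.37 log2 units after centring, ahead of ZNF655 (0.55), LTBP2 (0.57), TCIRG1 (0.65) and FHL2 (0.66) among 14198 genes. Of the 10 genes, MT1M came nearest (1.04, place 45), then MT1X (1.77, place 584), and MT1A was among the farthest (3.61, place 13712). The libraries share 5 lines, so this likeness rests mainly on differences between lines. It also depends on the pseudocount of 0.5, which narrows differences at low levels. SEMA7A, ZNF655, LTBP2 and TCIRG1 had means of 0.06 to 0.85 RPKM in the DMSO libraries of COLO320DM and ABC-1. MT1M was at 0 and 0.04 there, and FHL2 at 11.7 and 11.6.

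Of the other metallothionein loci on a list of 8, 7 are in the table. MT3, known from the brain, was expressed above the filter only in COLO320DM and fell by 1.07 on the log2 scale (SE 0.16, limma adjusted p = 0.000117), with 2.17 and 2.97 RPKM (37 and 51 reads) with G007-LK against 5.98 and 5.79 RPKM (105 and 87 reads) with DMSO. MT1L was at 799 and 775 RPKM in UO-31 with G007-LK and 943 and 911 RPKM with DMSO (-0.24 ± 0.08), and its call there was lost after scaling (adjusted p = 0.276) and without either DMSO replicate. MT4 and MT1JP had at most 2 reads in any library.

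Zinc transporters, 23 genes of the exporter family SLC30 and the importer family SLC39, were called most often in ABC-1 and OVCAR-4, the lines with most calls over all genes. In ABC-1 4 of 17 tested rose and 9 fell, beside 16.6% and 41.2% of all genes, with a median of -0.22 beside -0.14 for all genes. After scaling 5 rose and 6 fell, beside 31.4% and 32.4% of all genes. SLC39A14 (ZIP14), a plasma membrane importer of zinc and iron, was at 10.6 and 9.38 RPKM with G007-LK and 20.9 and 26.0 RPKM with DMSO, and fell by 1.19 (SE 0.10, limma adjusted p = 3.46e-32). SLC39A8 (ZIP8), a related importer, fell by 0.94 (adjusted p = 5.24e-15), and SLC39A2 rose by 1.18 (adjusted p = 6.28e-17) at 1.60 and 2.36 RPKM with G007-LK against 0.54 and 0.63 RPKM with DMSO. These 3 kept their calls after scaling, at larger limma adjusted p for SLC39A8 (4.64e-07) and SLC39A2 (1.04e-05). At low levels the pseudocount of 0.5 shrinks log2 differences, and the ratio of mean RPKM of SLC39A2 in ABC-1 was 3.39. In OVCAR-4 1 of 16 rose and 9 fell, beside 12.6% and 39.0% of all genes (median -0.17 beside -0.11). After scaling 1 rose and 3 fell there, beside 24.1% and 23.0% of all genes. In 1 fit over the 20 libraries 1 was called in OVCAR-4 and 4 in UO-31. In the OVCAR-4 fit SLC39A11 rose by 0.37 (limma adjusted p = 0.000307), and SLC39A10 fell by 0.35 (adjusted p = 0.000478).

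In UO-31 none of 15 zinc transporters rose and 1 fell, beside 4.79% and 8.63% of all genes. SLC39A14 fell by 0.48 (SE 0.17, limma adjusted p = 0.0453), at 23.4 and 16.2 RPKM with G007-LK against 27.5 and 27.1 RPKM with DMSO. This call was lost without DMSO replicate 1 or without DMSO replicate 2. By limma 0 of 16 were called in COLO320DM, beside 7.70% of all genes called higher and 11.6% lower. Of the 16, 2 were at an unadjusted p under 0.05 and 5 were called by voom on recovered reads, which called 4552 of 11275 genes. SLC30A10, known as a manganese exporter, was under the filter in COLO320DM and is named after its values were seen. It had 104 and 71 reads with G007-LK against 9 and 12 reads with DMSO. Without the filter it rose by 1.28 on the log2 scale (SE 0.15, limma adjusted p = 0.00581). The pseudocount of 0.5 exceeds its DMSO level and shrinks that value. Its mean RPKM was 1.06 with G007-LK against 0.14 with DMSO, a ratio of 7.81. By limma with the filter 0 of 15 were called in RKO, beside 1.36% of all genes called higher and 2.75% lower. Of the 15, 2 were at an unadjusted p under 0.05 and 0 were called by voom.

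**Figure D4:**
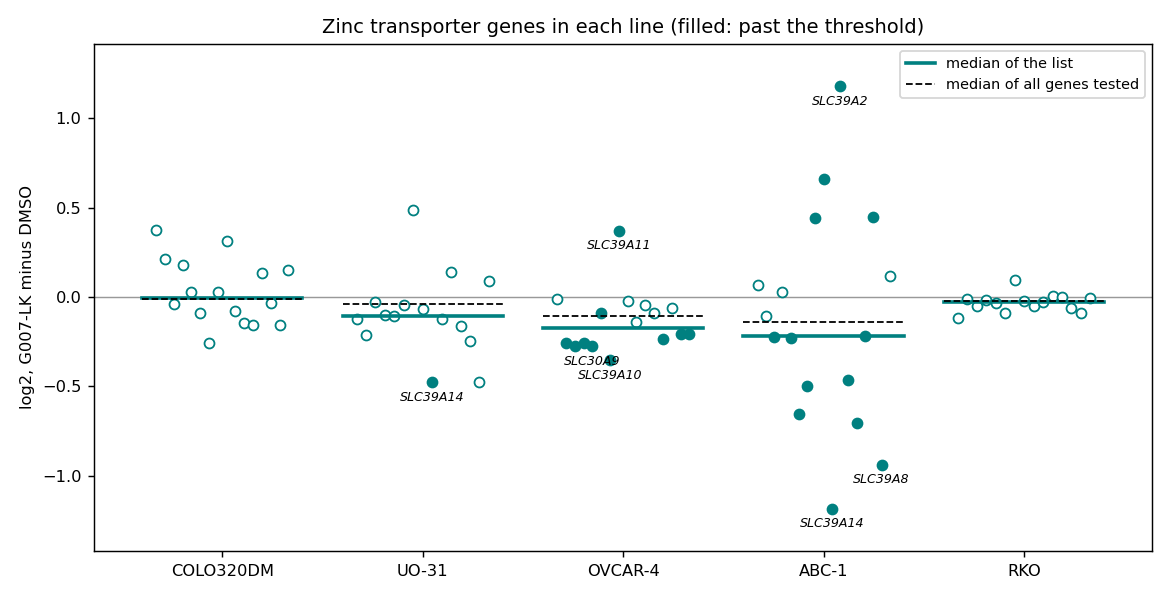
Log2 difference, G007-LK minus DMSO, of the zinc transporter genes tested in each line, filled where past the threshold, with the median of the list (green line) and of all genes tested (dashed line). SLC39A2 lies at 1.18 and SLC39A14 at -1.19 in ABC-1, and in RKO all 15 genes lie near 0.

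Of 14 genes of metal and heat stress, HMOX1, the heme oxygenase induced by heavy metals and oxidative stress, rose in all 5 lines. It was at 23.6 and 25.3 RPKM in ABC-1 with G007-LK and 6.80 and 5.89 RPKM with DMSO, a log2 difference of 1.87 (limma adjusted p = 1.31e-71), and at 198 and 182 RPKM in UO-31 with G007-LK and 63.1 and 62.0 RPKM with DMSO (1.60, adjusted p = 4.2e-33). The difference was 0.66 in RKO (adjusted p = 1.1e-05), 0.71 in OVCAR-4 (2e-06) and 0.63 in COLO320DM (0.00652), where the call was lost without either G007-LK replicate. It rose both where MT2A was higher and where it was lower. HSPH1, a heat shock chaperone, fell by 1.12 in ABC-1 (adjusted p = 1.73e-33) and by 0.46 in OVCAR-4 (2.66e-06). Over the list, 3 rose and 4 fell of 14 tested in ABC-1 (16.6% and 41.2% of all genes), 3 and 7 of 14 in OVCAR-4 (12.6% and 39.0%), 3 and 2 of 13 in COLO320DM (7.70% and 11.6%), 3 and 1 of 13 in UO-31 (4.79% and 8.63%), and 1 of 14 rose in RKO (1.36%). After scaling 3 rose and 2 fell in ABC-1 (31.4% and 32.4% of all genes) and 3 rose and 4 fell in OVCAR-4 (24.1% and 23.0%). The list medians were -0.13 to 0.02, beside -0.14 to -0.01 for all genes.

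Of 11 genes of copper handling, 10 were tested in ABC-1 and 10 in OVCAR-4. In ABC-1 2 rose and 5 fell, beside 16.6% and 41.2% of all genes, and in OVCAR-4 1 rose and 4 fell, beside 12.6% and 39.0%. The balance in OVCAR-4 turned with the scale, to 4 higher and 1 lower after median-ratio scaling (24.1% and 23.0% of all genes). By voom it was 5 higher and 2 lower, beside 2811 higher and 3625 lower of 12417 genes. Of 11 tested, none rose and 2 fell in COLO320DM (7.70% and 11.6% of all genes), and none rose and 2 fell in UO-31 (4.79% and 8.63%). In RKO none rose and 1 fell (1.36% and 2.75%), while after median-ratio scaling and by voom none fell and 1 rose. COX17, the copper chaperone of cytochrome oxidase, fell by 1.03 in ABC-1 (SE 0.07, limma adjusted p = 1.54e-44), and CCS, the copper chaperone of superoxide dismutase, rose by 0.47 there (adjusted p = 1.61e-06). ATOX1, which hands copper to the ATPases ATP7A and ATP7B, fell by 0.48 in COLO320DM (adjusted p = 0.00116), a call lost without G007-LK replicate 2.

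The genes that flank the metallothionein cluster on chromosome 16 were counted in the same way. Of 6 tested in each line, 1 rose and 2 fell in ABC-1, beside 16.6% higher and 41.2% lower of all genes. After scaling 3 rose and 2 fell there, beside 31.4% and 32.4% of all genes. By voom 3 rose and 2 fell, beside 3359 higher and 3633 lower of 10907 genes. HERPUD1, a gene of the endoplasmic reticulum stress response, rose by 0.71 in COLO320DM (limma adjusted p = 2.05e-05), where MT2A was lower, and by 0.46 in ABC-1 (adjusted p = 1.69e-08), where it was higher. NUP93, a nuclear pore protein, fell by 0.68 in ABC-1 (adjusted p = 2.97e-14) and by 0.65 in UO-31 (adjusted p = 0.000573), where the call was lost without either DMSO replicate. In OVCAR-4 1 rose and 3 fell (12.6% and 39.0% of all genes), and in COLO320DM 1 and 2 (7.70% and 11.6%). None rose and 2 fell in UO-31 (4.79% and 8.63%), and none rose and 1 fell in RKO (1.36% and 2.75%).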

How the data were processed

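RPKM values of 20 poly(A) libraries, 2 per line and treatment, were used. The authors made the deposited RPKM by aligning HiSeq 2000 reads with SOAPaligner/SOAP2 to hg19 genes, allowing up to 2 mismatches. The sources used here name no versions. Missing values were set to 0. Entries without a symbol (8 of 21610) were left out, and 371 symbols on several entries were joined. The deposited tables of the authors' NOISeq log2 ratios and probabilities were not used.

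Whole reads were recovered from the spacing of RPKM values (19897 of 20623 genes above 0, within 0.02 of a whole read, or 0.1 for high genes). Each line was fitted with limma 3.58.1 (R 4.3.3, statmod 1.5.0; trend and robust prior) on its 4 libraries, with a pseudocount of 0.5. The fits were also run on simulated data with independent noise per gene. Those data had no shift of whole libraries, so they say nothing of the shifts seen in UO-31 and COLO320DM. Alternatives were other pseudocounts and filters, median-ratio and quantile scaling, 1 fit over 20 libraries, a replicate block and leaving out each library. Voom on recovered reads, crossed numbers and RPM were added after the data had been seen.

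The 10 genes and all gene lists, written from general knowledge, were chosen with earlier results of these data known. Named genes are the 10 genes, up to 3 called genes per list and line with the largest difference, not all printed, and the 5 genes nearest to MT2A in pattern. P-values rest on the spread between the 2 biological replicates per group, which limma pulls toward the trend over all genes of the line. The smallest p-values therefore rest largely on the spread of other genes, not on that gene's own replicates alone. Tables were read with Python 3.11.15, numpy 2.4.6, pandas 2.3.3 and scipy, and drawn with matplotlib 3.10.9.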

Additional observations from a re-analysis of the deposited data

Results flagged for a closer look

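Of the 10 genes, 3 had both G007-LK libraries above both DMSO libraries in 1 line and below them in another, in RPKM and RPM alike. How many of all genes split in this way was not counted, so nothing is read from the number 3. The difference between lines was not tested for any of them. For MT2A, the log2 difference in ABC-1 exceeded that in COLO320DM by 1.45 (1.00 ± 0.07 against -0.45 ± 0.08). For MT1X, that in ABC-1 exceeded that in UO-31 by 0.62 (0.31 ± 0.12 against -0.31 ± 0.15). For MT1E, that in RKO exceeded that in UO-31 by 0.51 (0.09 ± 0.02 against -0.42 ± 0.08), and the values of MT1E may hold reads of the pseudogene MT1L. MT2A and MT1X were higher in ABC-1 and RKO and lower in the other 3 lines.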

How the results depend on the processing

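In the reported comparison the calls numbered for all genes 2178 in COLO320DM, 1591 in UO-31, 6405 in OVCAR-4, 6314 in ABC-1 and 432 in RKO. After median-ratio scaling the calls numbered for all genes 4351 in COLO320DM, 3564 in UO-31 and 285 in RKO, the 10 genes 2 in UO-31, zinc transporters 3 in COLO320DM, 3 in UO-31 and 4 in OVCAR-4, metal and heat stress 8 in COLO320DM and 2 in RKO, and the genes flanking the cluster 5 in COLO320DM, 5 in ABC-1 and 0 in RKO. With quantile normalization they numbered for all genes 4207 in COLO320DM, 3495 in UO-31 and 256 in RKO, zinc transporters 3 in COLO320DM, 3 in UO-31 and 4 in OVCAR-4, copper handling 5 in COLO320DM and 0 in RKO, metal and heat stress 8 in COLO320DM and 2 in RKO, and the genes flanking the cluster 5 in ABC-1 and 0 in RKO. With voom on recovered reads, added after the data had been seen, they numbered for all genes 4552 in COLO320DM, 3579 in UO-31 and 791 in RKO, the 10 genes 2 in UO-31, zinc transporters 5 in COLO320DM and 3 in UO-31, copper handling 4 in COLO320DM, metal and heat stress 8 in COLO320DM and 3 in RKO, and the genes flanking the cluster 5 in ABC-1. Without the filter on low values they numbered for all genes 1343 in COLO320DM, 801 in UO-31 and 72 in RKO, the 10 genes 2 in UO-31, 6 in ABC-1 and 0 in RKO, zinc transporters 1 in COLO320DM and 0 in UO-31, copper handling 1 in COLO320DM, 0 in UO-31 and 0 in RKO, metal and heat stress 3 in COLO320DM, and the genes flanking the cluster 1 in UO-31 and 0 in RKO. With a mean RPKM of at least 5 they numbered for all genes 704 in RKO, copper handling 2 in RKO, and metal and heat stress 2 in RKO. In 1 fit over the 20 libraries they numbered for all genes 3363 in COLO320DM, 4166 in UO-31, 2924 in OVCAR-4 and 11 in RKO, the 10 genes 0 in RKO, zinc transporters 1 in COLO320DM, 4 in UO-31 and 1 in OVCAR-4, copper handling 4 in COLO320DM, 2 in OVCAR-4 and 0 in RKO, metal and heat stress 5 in OVCAR-4, and the genes flanking the cluster 0 in RKO.

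With the replicate number as a block, although the labels give no pairing, they numbered for all genes 763 in COLO320DM and 150 in RKO, the 10 genes 1 in COLO320DM, zinc transporters 0 in UO-31, copper handling 1 in COLO320DM, 1 in UO-31, 4 in ABC-1 and 0 in RKO, metal and heat stress 3 in COLO320DM, and the genes flanking the cluster 1 in COLO320DM and 0 in RKO. With crossed numbers, also added after the data had been seen, in COLO320DM and ABC-1, where same-numbered libraries deviated in opposite directions (correlation -0.25 in both), the calls numbered for all genes 5203 in COLO320DM, zinc transporters 5 in COLO320DM, copper handling 4 in COLO320DM, metal and heat stress 9 in COLO320DM, and the genes flanking the cluster 5 in COLO320DM and 5 in ABC-1. Same-numbered libraries had correlations of -0.021 in UO-31, 0.0051 in OVCAR-4 and 0.055 in RKO.

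Leaving out each library in turn, which leaves 3 libraries and assumes that a lone library varies like the others, gave these ranges. For all genes the calls ran from 488 to 3187 in COLO320DM, 56 to 7483 in UO-31, 4053 to 6500 in ABC-1 and 126 to 148 in RKO. For the 10 genes the calls ran from 0 to 3 in COLO320DM, 0 to 7 in UO-31 and 1 to 2 in RKO. For zinc transporters the calls ran from 0 to 2 in COLO320DM, 0 to 12 in UO-31 and 5 to 11 in OVCAR-4. For copper handling the calls ran from 0 to 3 in COLO320DM, 0 to 7 in UO-31, 2 to 6 in OVCAR-4, 4 to 7 in ABC-1 and 0 to 1 in RKO. For metal and heat stress the calls ran from 2 to 7 in COLO320DM and 2 to 9 in UO-31. For the genes flanking the cluster the calls ran from 1 to 5 in COLO320DM, 0 to 4 in UO-31, 3 to 5 in ABC-1 and 0 throughout in RKO.

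All other counts, 264 under these settings, pseudocounts of 0.1 and 1 and leaving out a library, stayed within 1.5 times the reported ones. No called difference of the 10 genes and no named list gene changed direction under any setting run. The cause of the differences between scales was not tested. Under the filter of 1 RPKM, and so not tested, were MT1H in all lines, MT1E and MT1M in ABC-1 and COLO320DM, MT1A in ABC-1 and RKO, and MT1G in OVCAR-4, ABC-1 and RKO.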
